A study of Mus musculus with 721 samples.

Results

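The endoplasmic reticulum (ER) folding and secretion machinery was followed through 35 genes: chaperones, disulfide isomerases, lectin chaperones, sensors and transcription factors of the unfolded protein response, ER-associated degradation factors, and subunits of the translocon and signal peptidase. The 35 genes were chosen by function, with earlier results of these data known, and all 35 were found among the 32913 entries of the gene table. The shares of them called below are thus set beside those of all genes as a description. The series holds the transcriptomes of 721 cells sorted 1 by 1 out of embryonic mouse pancreas. All cells carried the same genotype label, a Neurogenin 3-eGFP reporter, and all had been sorted for eGFP, so no group lacked the reporter or received a treatment. The reporter drives eGFP from Neurog3, the gene of the transcription factor that starts endocrine differentiation. The groups differed in embryonic day and in run: E11.5 and E12.5 came from run 1, and E13.5, E14.5 and E15.5 from runs 1 and 2. The labels name the run without saying which steps it covered. Each combination of day and run is called a cell set here, and there were 8. The labels name no animals. The tests below therefore see only how much the sets vary, and embryos may be shared between the 2 runs of a day.

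Proteins made for secretion enter the ER through the Sec61 channel, helped by the translocon-associated protein (TRAP) complex, and lose their signal peptide to the signal peptidase. Inside, the Hsp70 chaperone BiP (gene Hspa5) and its J-domain partners, the disulfide isomerases and the lectin chaperones fold them, and misfolded chains are sent back to the cytosol for degradation. When folding capacity is short, the sensors IRE1 (Ern1), ATF6 and PERK (Eif2ak3) start the unfolded protein response. It raises chaperone transcription through XBP1 and ATF6 and slows translation through PERK, which also induces the transcription factor ATF4. Insulin is folded with disulfide bonds in this compartment, and pancreatic beta cells are known for a heavy secretory load.

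Of the 721 cells, 658 held at least 100000 fragments and 1500 genes at 1 FPKM or more (fragments per kilobase of transcript and library size) and were kept. The cells of a set held a median of 480057 to 844416 fragments. Kept cells were split by transcripts that are not among the 35 genes. Insulin cells had at least 1000 FPKM of Ins1 and Ins2 together, the insulin load, and over 10 times more of it than of Gcg, the glucagon transcript. Glucagon cells met the same limits the other way round. Cells with less than 100 FPKM of insulin, Gcg, Sst and Ghrl were called Neurog3-only (Neurog3 at 10 FPKM or more, Fev below), Neurog3 and Fev (both), Fev-only or negative for both. Fev is a transcription factor gene that follows Neurog3 in the endocrine lineage. This gave 42 insulin, 43 glucagon, 166 Neurog3-only, 83 Neurog3 and Fev, 66 Fev-only and 180 negative cells, and 78 other hormone cells. Insulin cells were found in 5 sets, with 2 at E13.5 run 1, 2 at E14.5 run 1, 8 at E14.5 run 2, 12 at E15.5 run 1 and 18 at E15.5 run 2. The labelled endocrine tissue was checked with 6 markers: Chga, Chgb, Neurod1, Isl1, Pax6 and Scg2 summed to 7752 to 11790 FPKM in the insulin cells of a set and to 682.6 to 2072 FPKM in the Neurog3-only cells of the same sets.

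Some libraries stood apart. At E12.5 and E13.5, the run 1 libraries had few GC-rich transcripts, and their values for the 35 genes are given apart where they matter. At E14.5, 1 pair of cells from different runs correlated by 0.874, and the next highest pair by 0.763. Both cells of the first pair were other hormone cells, which enter only the comparisons over all cells, and no count of genes called below differed without them. Libraries share 96 index pairs, which mark plate wells, and all 96 were found in more than 1 set. For 13 of the 35 genes an exon overlapped that of another annotated gene, and since no strand-specific counting is stated, the reads of both cannot be told apart. Among these were Ddit3 (with Mars), Manf (with Dcaf1 and Rbm15b), Pdia3 (with Catsper2), Pdia6 (with Atp6v1c2), Spcs1 (with Glt8d1), Spcs3 (with Asb5) and Syvn1 (with Mrpl49).

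The start regions of these genes carry known response elements, and they are shown as background to the list. The genes were chosen by function, and the elements are known from genes of this response. A high share of matches thus follows from the choice of genes and is no result of these cells. RefSeq start regions (GRCm38.p6, 250 bases before to 50 after the gene start) were at hand for 29 of the 35 genes. The ER stress response element (ERSE), the letters CCAAT followed by 9 bases and CCACG, was searched on both strands, and each match also contains a CCAAT box. It was found in 8 of the 29, or 27.6%, against 0.137% of 27025 genes with such a region. The second form, ERSE-II, the letters ATTGG followed by 1 base and CCACG, was found in 2 of the 29, or 6.9%, against 0.0444% of all. Neither the UPRE core (TGACG directly followed by TGG) nor the amino acid response element (TGATG, any base and AAT), also searched on both strands, were found in the 29, against 0.714% and 1.08% of all genes. A CCAAT box, inside or outside such an element, was found in 23 of the 29 and in 41.1% of all genes. The matches are given below, 5′ to 3′ in the direction of the element, with the fixed letters in capitals.
Hspa5 (ERSE, chr2:34772025-34772043, + strand, positions -65 to -47 from the start): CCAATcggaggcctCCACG
Hsp90b1 (ERSE, chr10:86705638-86705656, - strand, positions -212 to -194 from the start): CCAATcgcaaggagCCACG
Hsp90b1 (ERSE, chr10:86705533-86705551, + strand, positions -107 to -89 from the start): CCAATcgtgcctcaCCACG
Dnajc3 (ERSE, chr14:118937827-118937845, + strand, positions -105 to -87 from the start): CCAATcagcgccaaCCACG
Creld2 (ERSE, chr15:88819520-88819538, - strand, positions -126 to -108 from the start): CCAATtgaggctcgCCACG
Pdia6 (ERSE, chr12:17266491-17266509, + strand, positions -98 to -80 from the start): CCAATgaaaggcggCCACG
Calr (ERSE, chr8:84847075-84847093, + strand, positions -162 to -144 from the start): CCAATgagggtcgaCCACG
Canx (ERSE, chr11:50325800-50325818, - strand, positions -145 to -127 from the start): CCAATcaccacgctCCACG
Syvn1 (ERSE, chr19:6046532-6046550, + strand, positions -44 to -26 from the start): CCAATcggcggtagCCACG
Dnajb11 (ERSE-II, chr16:22857852-22857862, + strand, positions 8 to 18 from the start): ATTGGcCCACG
Herpud1 (ERSE-II, chr8:94386377-94386387, + strand, positions -52 to -42 from the start): ATTGGgCCACG

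The 250 bases before the RefSeq start are printed on the strand of the gene for Hspa5, Pdia6 and Creld2, which hold an ERSE, and for Sdf2l1, which holds none and had the largest difference in insulin cells. Capitals mark the ERSE, which in Creld2 lies on the opposite strand.
Hspa5 (chr2:34771840-34772089, + strand): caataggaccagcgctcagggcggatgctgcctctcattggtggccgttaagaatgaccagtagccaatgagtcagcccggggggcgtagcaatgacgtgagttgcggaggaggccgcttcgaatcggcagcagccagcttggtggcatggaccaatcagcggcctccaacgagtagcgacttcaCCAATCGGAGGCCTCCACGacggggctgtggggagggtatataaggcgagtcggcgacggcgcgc
Pdia6 (chr12:17266339-17266588, + strand): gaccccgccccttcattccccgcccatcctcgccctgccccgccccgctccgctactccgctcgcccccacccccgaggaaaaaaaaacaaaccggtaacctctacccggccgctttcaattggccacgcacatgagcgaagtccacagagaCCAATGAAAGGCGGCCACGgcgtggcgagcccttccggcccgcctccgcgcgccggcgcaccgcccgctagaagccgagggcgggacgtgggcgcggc
Creld2 (chr15:88819396-88819645, + strand): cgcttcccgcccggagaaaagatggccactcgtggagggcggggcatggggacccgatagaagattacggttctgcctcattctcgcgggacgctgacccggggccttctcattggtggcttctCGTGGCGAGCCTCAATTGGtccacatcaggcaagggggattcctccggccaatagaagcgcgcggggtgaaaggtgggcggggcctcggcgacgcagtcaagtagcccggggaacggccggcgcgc
Sdf2l1 (chr16:17132384-17132633, - strand): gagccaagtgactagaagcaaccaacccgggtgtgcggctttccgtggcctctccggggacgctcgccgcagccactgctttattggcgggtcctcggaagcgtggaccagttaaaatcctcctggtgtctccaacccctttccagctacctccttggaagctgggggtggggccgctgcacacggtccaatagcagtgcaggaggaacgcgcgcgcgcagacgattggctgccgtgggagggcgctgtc

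**Figure D1:**
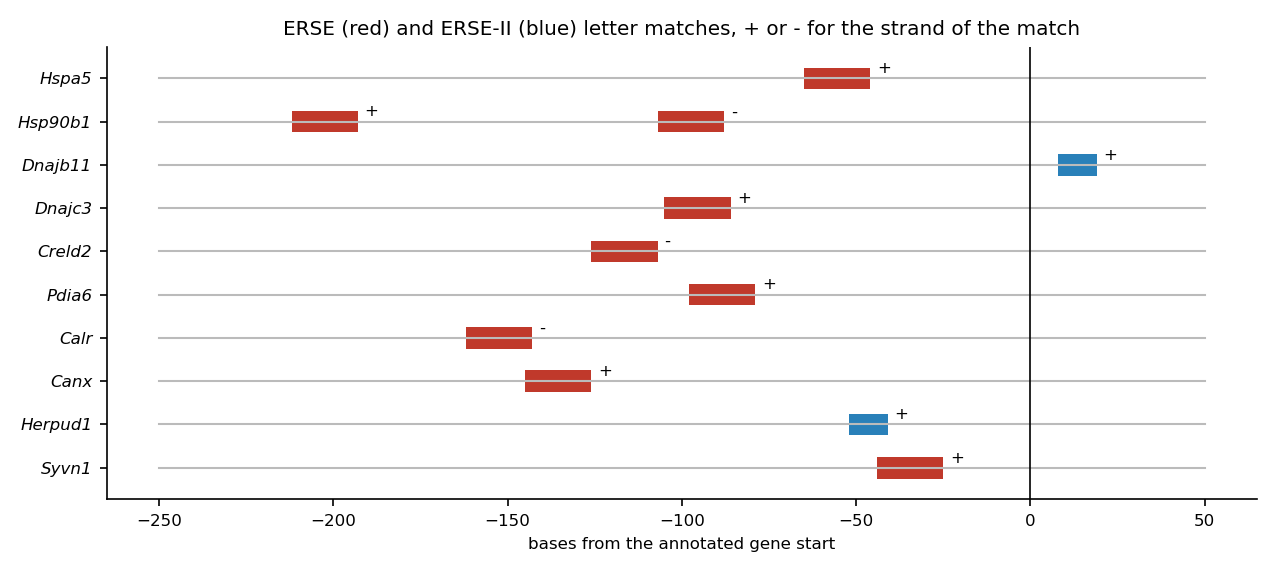
Position of each ERSE (red) and ERSE-II (blue) match in the RefSeq start region of the gene named on the y axis. The x axis is in bases from the gene start, the bar has the length of the match, and + or - gives its strand relative to the gene. All but the Dnajb11 match lie before the start, from position -212 in Hsp90b1 to -44 in Syvn1.

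Levels differed widely among the 35 genes over all kept cells. The translocon-associated Ssr2 had the highest mean, 902.7 FPKM, followed by Hspa5 with 815 FPKM and Sec61b with 801 FPKM. These 3 were at 1 FPKM or more in 99.1% to 99.2% of cells. The lowest means were those of Eif2ak3, Edem1 and Ern1. The sensor Eif2ak3 had a mean of 1.39 FPKM and was at 1 FPKM or more in 10.2% of cells, and the sensor Ern1 had 4.01 FPKM and 30.6%. Edem1, a mannosidase-like factor of ER-associated degradation, had 2.74 FPKM and 21.7%. The sensor Atf6 was higher, with 14.3 FPKM and 57.1%, above Syvn1 with 12.6 FPKM. Between the set means, neighbouring genes in this order overlapped: Ssr2 ranged from 529 to 1376 FPKM over the 8 sets, Hspa5 from 544.5 to 1080 FPKM and Sec61b from 299 to 1282 FPKM.

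**Figure D2:**
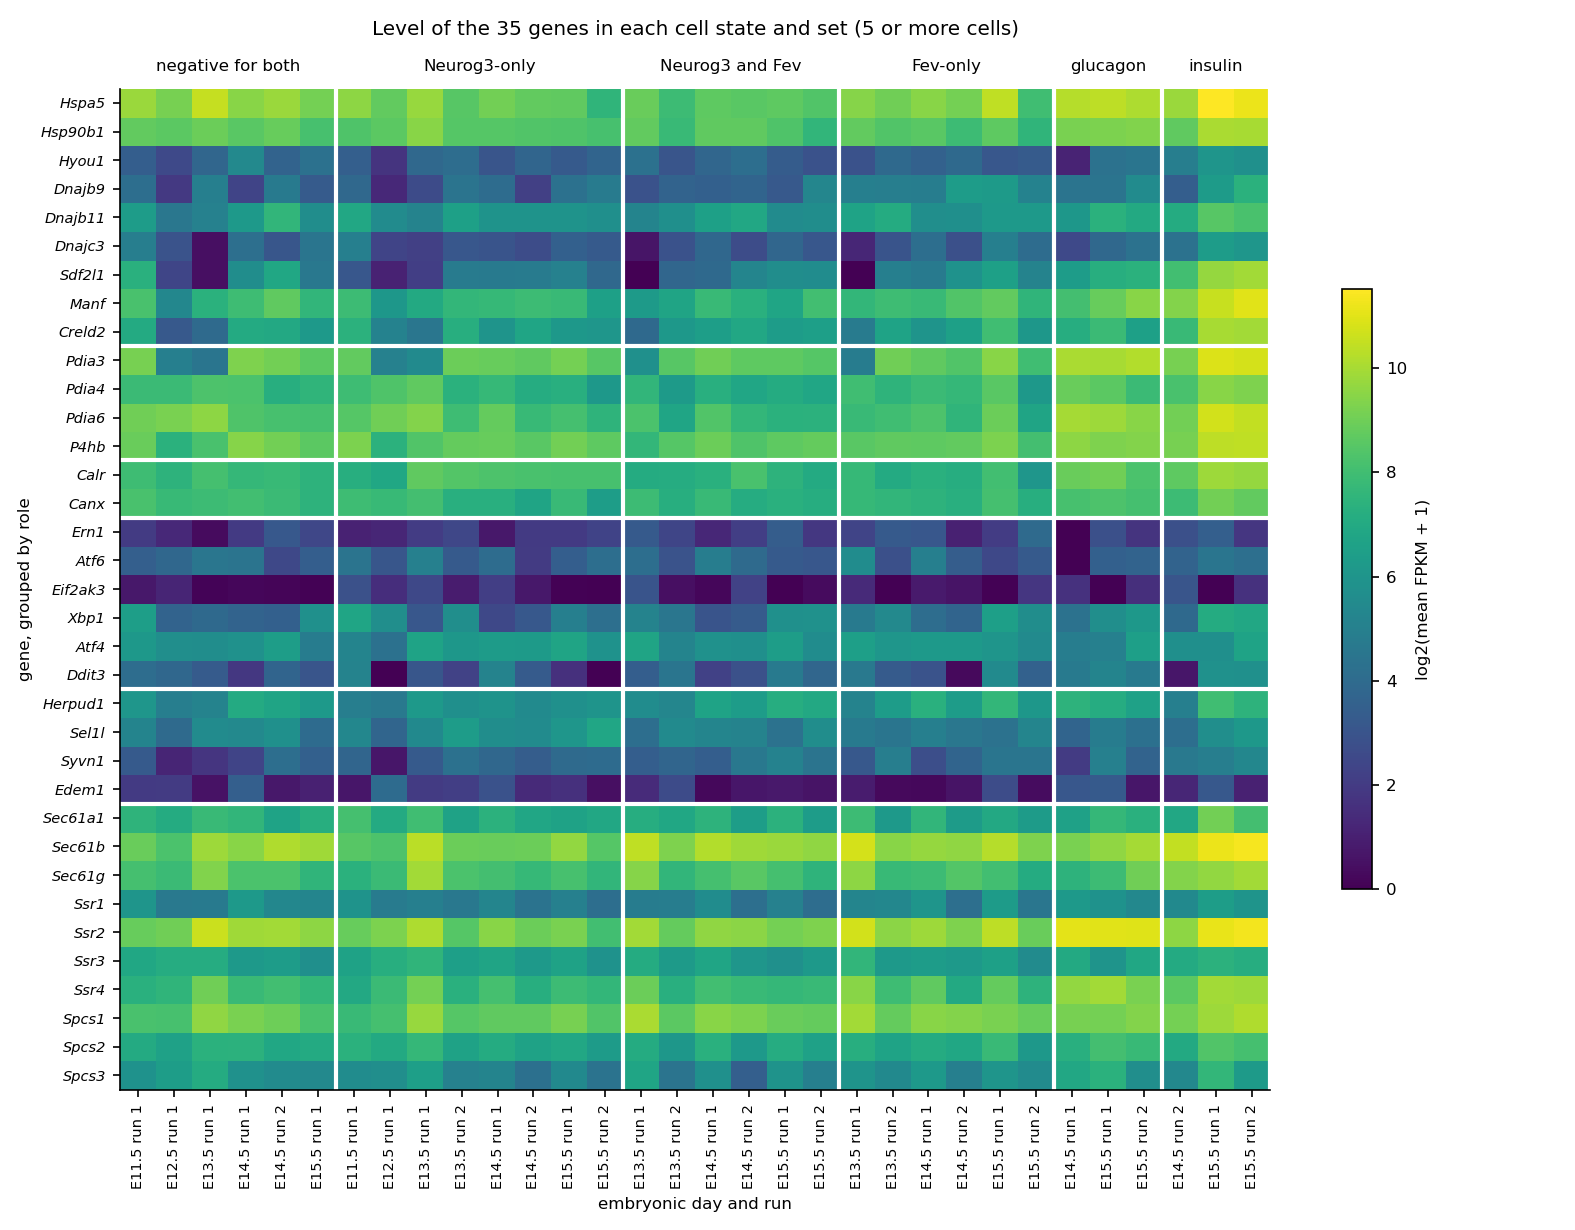
Mean level of each of the 35 genes, as log2(mean FPKM + 1) by colour, in every cell state and cell set with at least 5 cells. Rows are grouped by role with white lines between roles, and columns by state. The insulin columns of E15.5 are the brightest for Hspa5, Manf and Creld2, and the sensor rows Ern1 and Eif2ak3 are dark throughout.

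In insulin cells 5 of 9 chaperones, 2 of 4 disulfide isomerases and 3 of 10 translocon and signal peptidase genes were higher than in Neurog3-only cells. The comparison asks how the machinery differs between cells that make the secreted product and the progenitors of the same day and run. It used the 3 sets with at least 5 cells of both states, E14.5 run 2, E15.5 run 1 and E15.5 run 2, which held 8, 12 and 18 insulin cells against 28, 23 and 15 Neurog3-only cells. Of the 35 genes 10 were higher and 0 lower (limma on log2(mean FPKM + 1) with the set as a term, adjusted p under 0.05 over 14622 genes), while 1.61% of all genes tested were higher and 1.11% lower. The difference was positive for 33 of the 35 genes and 27 had an unadjusted p under 0.05 in that direction. The median difference of the 35 was 1.60 on the log2 scale, against 0.09 over all genes, and 1.47 against -0.11 after rescaling. Rescaling left 12288 of the 32913 entries out of each cell's FPKM sum. These were hormone, mitochondrial, small RNA, Riken and numbered predicted (Gm) genes, spike-ins, the reporter and entries without a name. Where group means are said below not to overlap or to stand apart, the share of all genes with such a gap was not counted.

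Among the chaperones and their partners 5 of 9 were higher. Sdf2l1, a partner of BiP and its J-domain proteins, had means of 258, 836 and 977 FPKM in insulin cells of the 3 sets in the order above, and of 27, 32.2 and 13.7 FPKM in Neurog3-only cells. The groups did not overlap, and the log2 difference of 4.64 ± 0.53 (SE, 3 sets, limma adjusted p = 0.0117) was the largest of the 35. Hspa5, the gene of BiP, had 871, 2942 and 2330 FPKM against 436, 418 and 187 FPKM. Each insulin mean was above all 3 Neurog3-only means, with a log2 difference of 2.48 ± 0.47 (limma adjusted p = 0.0457). Manf, an ER-resident protein that is also secreted under stress, had 659, 1502 and 2075 FPKM against 236.5, 223 and 91.9 FPKM. It differed by 2.90 ± 0.52 (limma adjusted p = 0.0402), and again the groups stood apart. Creld2, an ER stress-inducible protein with EGF-like repeats, had 221, 1034 and 985 FPKM against 108, 68.9 and 66.2 FPKM and differed by 2.93 ± 0.57 (limma adjusted p = 0.0494). Dnajb11, a J-domain partner of BiP, had 136, 370.1 and 292 FPKM against 59.9, 60.2 and 51.9 FPKM and differed by 2.08 ± 0.38 (limma adjusted p = 0.0439). The E14.5 insulin cells had a median insulin load of 12220 FPKM, against 152300 and 68850 FPKM at E15.5 in runs 1 and 2. For all 5 genes these E14.5 cells had the lowest of the insulin means, and the part of the load was not tested. The other 4 did not pass: the Hsp90 chaperone Hsp90b1 differed by 1.31, the nucleotide exchange factor Hyou1 by 2.01, and the J-domain proteins Dnajb9 and Dnajc3 by 1.95 and 2.44, each positive in all 3 sets, with limma adjusted p from 0.0522 (Dnajc3) to 0.117 (Hsp90b1).

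Of the 4 disulfide isomerases 2 were higher. Pdia6 had 535, 1712 and 1420 FPKM in insulin cells against 218, 278 and 182 FPKM, a log2 difference of 2.29 ± 0.36 (limma adjusted p = 0.028). Pdia4 had 299, 706 and 634 FPKM against 141, 151 and 68.7 FPKM, a difference of 2.16 ± 0.42 (limma adjusted p = 0.0473). In both genes every insulin mean lay above every Neurog3-only mean. Pdia3, which works with the lectin chaperones, and P4hb, the gene of protein disulfide isomerase itself, differed by 1.50 and 1.21 and did not pass. Neither did the lectin chaperones, which bind glycoproteins: Calr differed by 1.20 (limma adjusted p = 0.11) and Canx by 1.60 (limma adjusted p = 0.0588).

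Of the 10 translocon, TRAP and signal peptidase genes 3 were higher, and all 10 differences were positive, from 0.94 (Spcs1) to 1.97 (Sec61b). Ssr4, a TRAP subunit, had 394, 971 and 927 FPKM in insulin cells against 151, 238 and 194 FPKM, a difference of 1.88 ± 0.28 (limma adjusted p = 0.0245). Sec61g, the gamma subunit of the channel, had 664.5, 815 and 969 FPKM against 211, 287.5 and 188 FPKM and differed by 1.84 ± 0.28 (limma adjusted p = 0.025). Sec61b, the beta subunit, had 1393, 2312 and 2677 FPKM against 488, 813 and 359 FPKM and differed by 1.97 ± 0.33 (limma adjusted p = 0.0328). These 3 small subunits did not overlap between the states, while Sec61a1, the gene of the pore itself, had 118, 537 and 272 FPKM against 112, 98.5 and 121 FPKM and did not pass (limma adjusted p = 0.231). The TRAP subunit Ssr1 and the signal peptidase subunit Spcs2 differed by 1.40 and 1.22 without passing. Ssr2, another TRAP subunit, differed by 1.95 ± 0.46, positive in 3 of 3 sets, and did not pass either (limma adjusted p = 0.0836). At E14.5 the means of Sec61a1 lay close together, and at E15.5 both of its insulin means were above the others.

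None of the 6 sensors and transcription factors passed. Xbp1, the transcription factor activated by IRE1, had 14.2, 137 and 118 FPKM in insulin cells against 8.13, 30.9 and 17.5 FPKM, a difference of 1.84 ± 0.50 (limma adjusted p = 0.117). Atf4, the factor that PERK induces, had 52.2, 52.1 and 102 FPKM against 76.1, 106 and 58.5 FPKM, a difference of -0.25 with overlapping groups. Ddit3, the stress-inducible factor CHOP, had 0.634, 56.4 and 54.8 FPKM against 8.87, 1.99 and 0 FPKM, so E14.5 and E15.5 went opposite ways. Ern1, Atf6 and Eif2ak3 had adjusted p from 0.46 to 0.698 in limma at levels of 0 to 21.45 FPKM.

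The ER-associated degradation factors did not move as 1 group, and none of the 4 passed. Sel1l, which scaffolds the ubiquitin ligase Syvn1 in the ER membrane, had 17.1, 50.8 and 68.8 FPKM in insulin cells against 46.4, 65.6 and 113 FPKM, lower in 3 of 3 sets (-0.82 ± 0.38, limma adjusted p = 0.352). Syvn1 itself had 24.6, 29.9 and 39.1 FPKM against 9.48, 14.8 and 15.2 FPKM, a difference of 1.19 ± 0.44 (limma adjusted p = 0.233). The 2 partners thus had differences of opposite sign in the same cells. Herpud1 and Edem1 differed by 1.05 and 0.68, each positive in 2 of 3 sets.

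**Figure D3:**
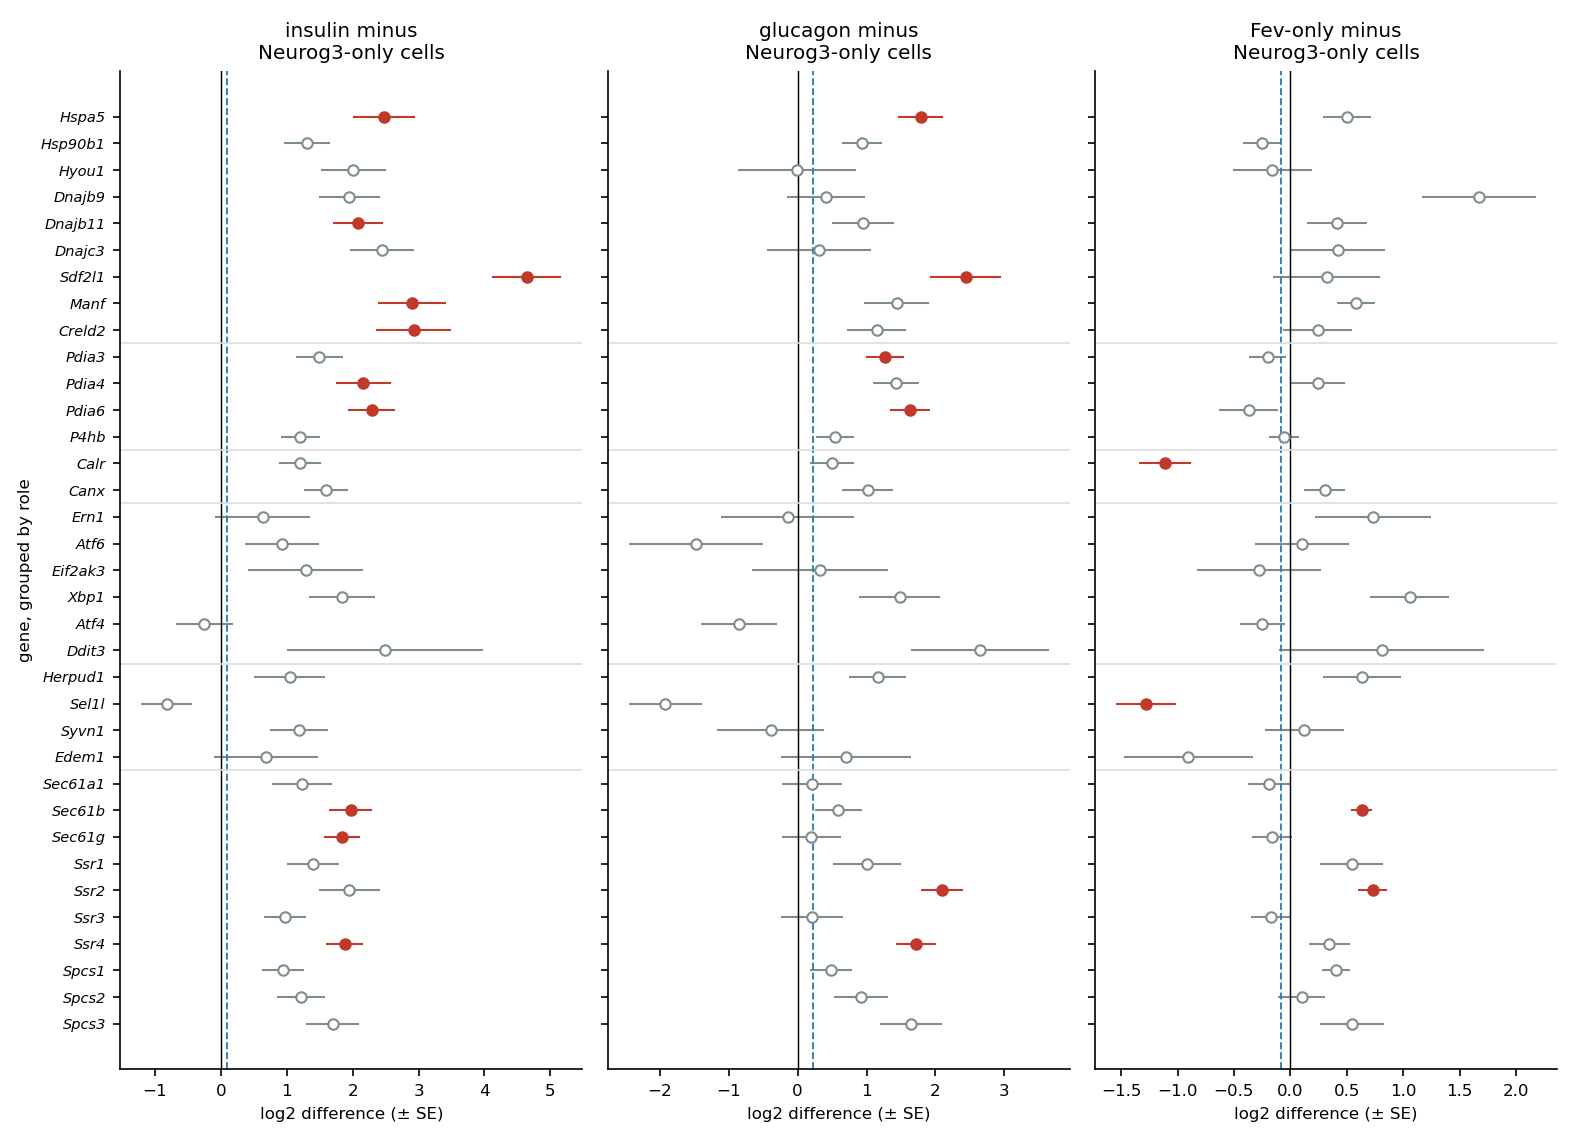
Log2 difference of each of the 35 genes from Neurog3-only cells, in insulin cells (left), glucagon cells (middle) and Fev-only cells (right). Points are limma estimates with bars of 1 SE, filled red where the adjusted p was under 0.05, the blue dashed line is the median of all genes tested, and the 3 panels have x axes of their own. Insulin cells have 10 red points with the largest at Sdf2l1 (4.64), glucagon cells 6 and Fev-only cells 4, of which Calr and Sel1l lie below 0.

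The count of 10 rested on the sets used. It was 19 without E14.5 run 2, 9 without E15.5 run 2 and 1 without E15.5 run 1. With all 3 sets it was 23 after rescaling and 0 with no filter on low values. For these and the other alternatives below, the share of all genes called was not counted. A count that moved may thus follow the number of genes called in all. Markers of leukocytes moved with this comparison: C1qa, C1qb, Ptprc, Cd68 and Tyrobp summed to 16.3 to 67.4 FPKM in the insulin cells of the 3 sets and to 0.521 to 6.71 FPKM in the Neurog3-only cells, mostly from C1qa, while Tyrobp was at 0 in all insulin cells. The 6 acinar markers summed to 8.42 to 14.6 FPKM in insulin cells, where Ptf1a was at 0, against 15.9 to 55.7 FPKM, but did not move one way. Bhlha15, a transcription factor of secretory cells, had 6.27, 13.53 and 12.3 FPKM in insulin cells against 0.298, 0.691 and 0.348 FPKM, and Cpa1 had 0, 0.428 and 0 FPKM against 8.4, 46.8 and 12.4 FPKM. The part of either list in the result was not tested. The median depth in the 3 sets was 510061, 794398 and 582270 fragments in insulin cells against 521171, 614509 and 467837 fragments in Neurog3-only cells.

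Of the 10 genes with an ERSE or ERSE-II, 4 were higher in insulin cells (Hspa5, Dnajb11, Creld2 and Pdia6), with a median difference of 1.84. Of the 19 with a start region and neither element, 5 were higher, with a median of 1.40. Every one of the 10 had a positive difference, from 1.05 (Herpud1) to 2.93 (Creld2). The spread of the 19 was wider, from -0.82 (Sel1l) to 4.64 (Sdf2l1).

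A wider list of 75 genes of the pathway gave 10 higher and 0 lower of 73 tested in the same comparison. The largest were Fkbp11, an ER prolyl isomerase (4.41 ± 0.60, limma adjusted p = 0.0195), Sec11c, a catalytic subunit of the signal peptidase (3.94 ± 0.73, limma adjusted p = 0.0448), and Ero1lb, the oxidase that recharges the disulfide isomerases (3.77 ± 0.72, limma adjusted p = 0.046). Each was higher in 3 of 3 sets. The median difference of the wider list was 1.18.

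Glucagon cells, which make the other early islet hormone, were compared in the same way. The comparison with Neurog3-only cells used E14.5 run 1, E15.5 run 1 and E15.5 run 2, with 6, 6 and 12 glucagon cells against 31, 23 and 15. Of the 35 genes 6 were higher and 0 lower, while 2.0% of the 14277 genes tested were higher and 0.939% lower. The median difference was 0.92 against 0.23 over all genes, and 29 of 35 were positive. After rescaling the median was 0.40 against -0.13 over all genes, and 25 were positive. The comparison shares the Neurog3-only cells of E15.5 with the one above, so the values are given side by side and not compared by overlap.

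Of the 4 TRAP subunits 2 passed in glucagon cells, Ssr2 and Ssr4. Ssr2 had 2119, 2069 and 1980 FPKM in the 3 sets against 704, 598 and 261 FPKM, a log2 difference of 2.10 ± 0.31 (limma adjusted p = 0.00882). Ssr4 had 801, 969 and 586 FPKM against 274, 238 and 194 FPKM, a difference of 1.72 ± 0.29 (limma adjusted p = 0.017). The glucagon means of Ssr2 were close between sets, and neither gene overlapped with Neurog3-only cells. Hspa5 had 1193, 1332 and 1098 FPKM against 542, 418 and 187 FPKM (1.79 ± 0.32, limma adjusted p = 0.0197), and Sdf2l1 had 81.4, 149.8 and 165 FPKM against 25.7, 32.2 and 13.7 FPKM (2.44 ± 0.52, limma adjusted p = 0.0378). Pdia6 and Pdia3 differed by 1.63 ± 0.29 and 1.27 ± 0.28 (limma adjusted p = 0.0197 and 0.0429). In all 6 genes, which are named because they had passed, every glucagon mean was above every Neurog3-only mean. How many of all genes were so separated was not counted.

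The remaining genes of glucagon cells did not pass. The other TRAP subunits Ssr1 and Ssr3 differed by 1.01 and 0.21 (limma adjusted p = 0.371 and 0.86), and the signal peptidase subunit Spcs2 by 0.92. Sec61b, Sec61g and Sec61a1 differed by 0.59, 0.20 and 0.21, and after rescaling the last 2 were at -0.30 and -0.11. Manf and Creld2 differed by 1.44 and 1.15. Sel1l had 12.1, 27.4 and 18 FPKM against 49.4, 65.6 and 113 FPKM, lower in 3 of 3 sets (-1.92 ± 0.53, limma adjusted p = 0.0981, and -2.13 with adjusted p = 0.039 after rescaling). Of the wider list 4 of 71 tested were higher, led by Sesn2, a stress-inducible regulator of growth signalling (3.71 ± 0.63, limma adjusted p = 0.017), Os9, a lectin of ER-associated degradation (2.08 ± 0.43, limma adjusted p = 0.0337), and Ddost, a subunit of the oligosaccharyltransferase (1.77 ± 0.29, limma adjusted p = 0.0137). Leukocyte markers summed to 14.49 to 25.1 FPKM in these glucagon cells and to 2.22 to 6.71 FPKM in the Neurog3-only cells, with Tyrobp, Cd68 and C1qb at 0 in the former. Acinar markers summed to 0 to 23.8 FPKM against 15.9 to 55.7 FPKM, with Cpa1, Cel, Cpb1 and Ptf1a at 0 in glucagon cells. The part of either list was not tested.

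Insulin cells were compared with glucagon cells directly in the 2 sets of E15.5 that held enough of both. All 35 differences were positive, with a median of 0.91 against -0.16 over all genes, and 5 genes passed, while 0.233% of the 14134 genes tested were higher. Creld2 had 1034 and 985 FPKM in insulin cells of runs 1 and 2 against 230 and 92.1 FPKM in glucagon cells, a log2 difference of 2.78 ± 0.33 (limma adjusted p = 0.00302). Sdf2l1 had 836 and 977 FPKM against 149.8 and 165 FPKM (2.52 ± 0.27, limma adjusted p = 0.00231), and Manf 1502 and 2075 FPKM against 456 and 706 FPKM (1.64 ± 0.19, limma adjusted p = 0.00272). Sec61b had 2312 and 2677 FPKM against 791 and 1001 FPKM (1.48 ± 0.16, limma adjusted p = 0.00232), and Hspa5 2942 and 2330 FPKM against 1332 and 1098 FPKM (1.11 ± 0.15, limma adjusted p = 0.00911).

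The 2 TRAP subunits that passed in glucagon cells had smaller differences between the hormone states. Ssr2 had 2275 and 2558 FPKM in insulin cells against 2069 and 1980 FPKM in glucagon cells, a difference of 0.25 ± 0.14, and Ssr4 differed by 0.33 ± 0.22. Neither passed (limma adjusted p = 0.681 and 0.768). In the wider list 1 of 72 tested was higher: Derl3, a factor of ER-associated degradation (6.13 ± 1.06, limma adjusted p = 0.0397). Leukocyte markers summed to 44 to 67.4 FPKM in the insulin and 14.49 to 25.1 FPKM in the glucagon cells of these sets, and their part was not tested. With 2 sets the test leans on the spread pooled over genes, and the count of 5 became 0 without the term for the cell set, 1 when hormone cells were taken from 100 FPKM, 0 when sets with 2 cells of both states entered, and 17 after rescaling.

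In Fev-only cells, which held under 100 FPKM of each hormone transcript, 4 of the genes differed, in both directions. These cells were compared with Neurog3-only cells in 6 sets, from E13.5 to E15.5 in both runs. Of the 35 genes 2 were higher and 2 lower, while 3.23% of the 14932 genes tested were higher and 4.45% lower, so the share of genes called was close to that of all genes. Sec61b was higher in 6 of 6 sets, with 618 to 1751 FPKM against 359 to 1292 FPKM, a log2 difference of 0.63 ± 0.09 (limma adjusted p = 0.00336). Ssr2 was higher in 6 of 6 sets by 0.73 ± 0.13 (limma adjusted p = 0.00779). Calr was lower in 6 of 6 sets: the Fev-only means were 66.2 to 262 FPKM and the Neurog3-only means 287 to 416 FPKM, which do not overlap. It fell by 1.11 ± 0.23 on the log2 scale (limma adjusted p = 0.0168).

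Sel1l was also lower in 6 of 6 sets, with 19.2 to 37.2 FPKM in Fev-only and 44 to 113 FPKM in Neurog3-only cells, which do not overlap either. It fell by 1.28 ± 0.27 on the log2 scale (limma adjusted p = 0.0183). The lower calls rested on single sets: without E13.5 run 2 neither Calr nor Sel1l passed, without E14.5 run 1 Calr did not, and without E15.5 run 1 or run 2 Sel1l did not, with limma adjusted p from 0.0506 to 0.0632. With Neurog3 and Fev cut at 50 FPKM no gene of the 35 passed: Sec61b and Calr still differed by 0.65 and -1.48, while Ssr2 and Sel1l differed by 0.08 and -0.04. The genes that led the insulin cells were not called here: Sdf2l1 differed by 0.32 ± 0.47, Hspa5 by 0.50 ± 0.21, Creld2 by 0.24 ± 0.30 and Manf by 0.58 ± 0.17. Dnajb9, a J-domain protein, was positive in 6 of 6 sets by 1.67 ± 0.51 without passing (limma adjusted p = 0.0812).

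In the wider list 7 genes were higher and 2 lower of 72 tested in Fev-only cells. Sesn2 (3.07 ± 0.38) and Asns, the asparagine synthetase (2.37 ± 0.29), both known targets of ATF4, were higher in 6 of 6 sets (limma adjusted p = 0.0013 and 0.00127). Rcn1, a calcium-binding protein of the secretory pathway, was higher by 1.28 ± 0.26 (limma adjusted p = 0.0162). Calu, a calcium-binding relative of Rcn1, fell by 1.82 ± 0.28 and Ppib, the ER cyclophilin, fell by 1.39 ± 0.15 on the log2 scale (limma adjusted p = 0.00405 and 0.000653), each in 6 of 6 sets. Atf4 itself differed by -0.25 ± 0.20, negative in 6 of 6 sets, and did not pass. Of the 5 leukocyte markers C1qb was at 0 in Fev-only cells, and the highest mean was 1.81 FPKM (C1qa) there and 1.56 FPKM (Cd68) in Neurog3-only cells. Endothelial markers summed to 0 to 21.9 FPKM against 0.186 to 2.01 FPKM, led by Pecam1 with 21.1 FPKM at E13.5 run 1 and 6.71 FPKM at E14.5 run 1 in Fev-only cells. Acinar markers summed to 0.489 to 64.5 FPKM in Fev-only and 10.4 to 55.7 FPKM in Neurog3-only cells. The part of these lists was not tested.

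Cells with both Neurog3 and Fev were compared with Neurog3-only cells in the same 6 sets. No gene of the 35 passed in limma, with 1 at an unadjusted p under 0.05 higher and 3 lower, while 0.812% of the 14895 genes tested were higher and 0.967% lower. Calr had 133 to 297 FPKM against 287 to 416 FPKM (-0.96 ± 0.21, limma adjusted p = 0.0579) and Sel1l 17.1 to 48.6 FPKM against 44 to 113 FPKM (-0.99 ± 0.26, limma adjusted p = 0.0975), each lower in 6 of 6 sets. Of the wider list Asns was higher (2.27 ± 0.29, limma adjusted p = 0.0098) and Ppib lower (-0.9997 ± 0.15, limma adjusted p = 0.0171), each in 6 of 6 sets. These cells share the Neurog3-only cells with the comparison of Fev-only cells.

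Insulin cells were also set against Fev-only cells, in E14.5 run 2 and both E15.5 sets. None of the 35 passed in limma, with 20 at an unadjusted p under 0.05 and all of those higher, while 0.0282% of the 14172 genes tested were higher. The difference was positive for 34 genes, with a median of 1.17 against 0.21 over all genes. Sdf2l1 had 258, 836 and 977 FPKM in insulin cells against 57.7, 93.6 and 35 FPKM in Fev-only cells (3.35 ± 0.51, limma adjusted p = 0.18), and Calr 400, 921 and 827 FPKM against 145, 262 and 66.2 FPKM (2.30 ± 0.45, limma adjusted p = 0.222). For both genes the groups did not overlap. Without E14.5 run 2 17 genes passed, and with an insulin load of at least 10000 FPKM 10 did.

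Within the insulin cells the same machinery varied with the insulin load. The load ran from 1004 FPKM to 921700 FPKM over single cells. The 2 sets of E15.5 were split at their own median load, giving a high-load and a low-load group of 6 cells each in run 1 and of 9 cells each in run 2. The median load of the high-load group was 288800 FPKM in run 1 and 268900 FPKM in run 2, against 20140 FPKM and 14100 FPKM in the low-load group. Of the 35 genes 10 were higher in the high-load group, while 0.546% of the 13197 genes tested were higher. All 35 differences were positive, with a median of 1.24 against 0.51 over all genes. After rescaling, which leaves out insulin together with the other entries named above, 32 were positive (all but Ern1, Ssr3 and Syvn1) and 8 passed. The median was then 0.59, lower than before, against -0.19 over all genes. Which of the entries left out moved these values was not tested. The count of 10 was 5 with no filter on low values, 3 in cells of at least 300000 fragments and 0 without the term for the cell set.

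Sdf2l1 had 1287 and 1643 FPKM in the high-load groups of runs 1 and 2 against 384 and 312 FPKM in the low-load groups, a log2 difference of 2.07 ± 0.34 (limma adjusted p = 0.00234). Creld2 had 1628 and 1525 FPKM against 439 and 445 FPKM (1.83 ± 0.32, limma adjusted p = 0.00465), and Pdia6 2409 and 2331 FPKM against 1015 and 508 FPKM (1.72 ± 0.31, limma adjusted p = 0.00582). Both low-load means lay below both high-load means for these 3 genes. Manf differed by 1.70 ± 0.31, Sec61g by 1.69 ± 0.34, Calr by 1.45 ± 0.33 and Ssr2 by 1.42 ± 0.31. Pdia3, Sec61b and Hspa5 differed by 1.40, 1.28 and 1.28. The adjusted p of these 7 lay between 0.00744 (Manf) and 0.0412 (Calr) in limma. Atf4 had the largest difference that did not pass, with 99.2 and 150.1 FPKM against 5.06 and 53.1 FPKM (2.77 ± 0.73, limma adjusted p = 0.0984). In the wider list 5 of 72 were higher, led by Derl3 (5.62 ± 0.95), Fkbp11 (2.80 ± 0.60) and Sec11c (2.47 ± 0.43), with adjusted p of 0.00327, 0.0261 and 0.00496 in limma.

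Over the single cells of a set, the rank correlation with insulin load is a description, since the cells share a set and a scaling. In the 12 cells of E15.5 run 1 its median over the 34 genes with a value was 0.62, and in the 18 cells of E15.5 run 2 over 35 genes it was 0.70. It was over 0.5 for 23 and 26 genes, and over 0.5 for 9.17% and 6.12% of all genes at 1 FPKM or more on average. The highest were Pdia6 in run 1 (0.90) and Hsp90b1 in run 2 (0.88). Eif2ak3 (-0.30) and Ern1 (-0.21) were the lowest in run 2. Depth moved with load: its rank correlation with load was 0.62 in run 1 and 0.61 in run 2, and the high-load groups held a median of 1020000 and 1120000 fragments against 627178 and 569513. After rescaling the median correlations were 0.35 and 0.42, against -0.01 and -0.06 over all genes. Over 0.5 were then 8 and 12 of the 35 genes, and 4.21% and 1.68% of all. The part of depth in these values was not tested.

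**Figure D4:**
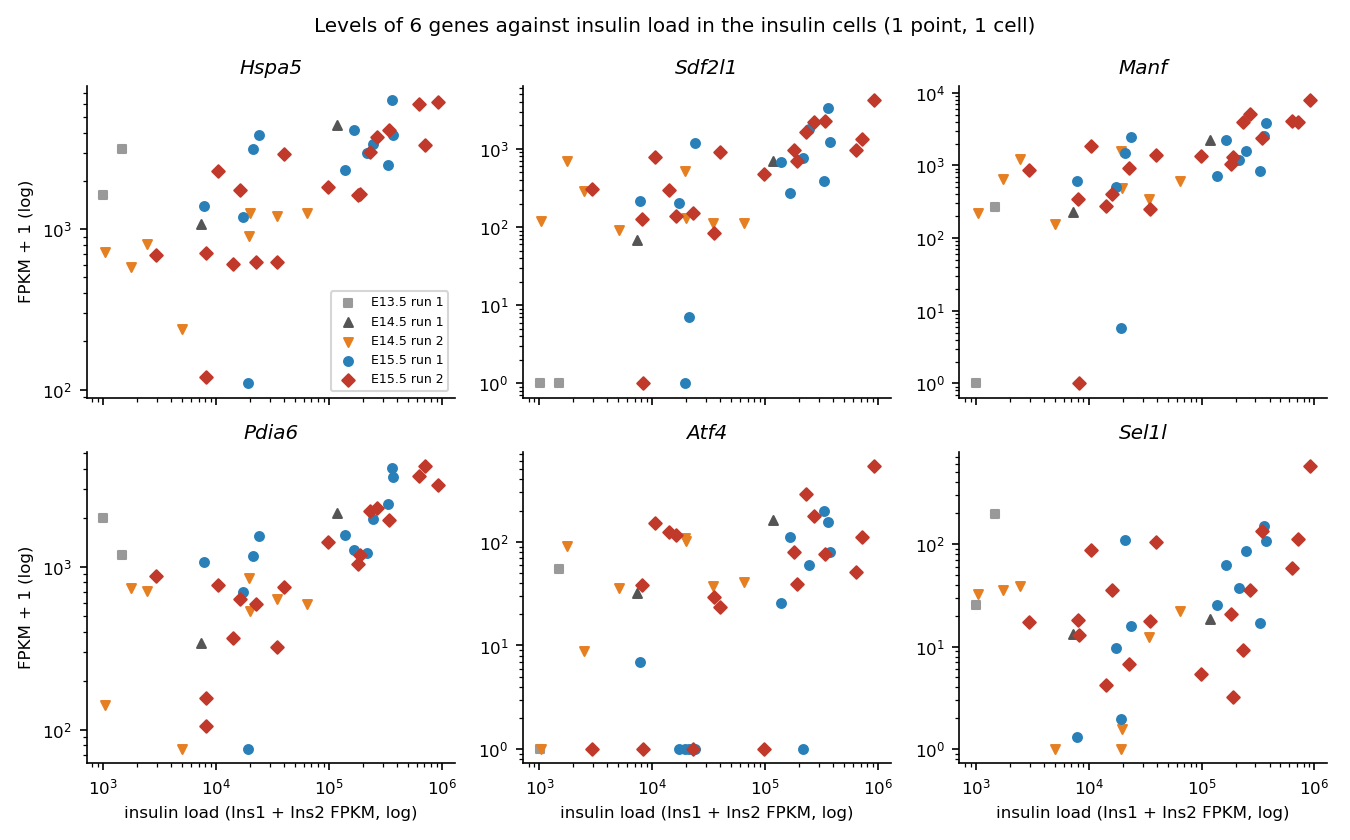
FPKM + 1 of 6 of the genes (y axis, log scale) against insulin load in FPKM (x axis, log scale) in the 42 insulin cells, 1 point per cell, with colour and shape for the cell set. Hspa5, Sdf2l1, Manf and Pdia6 are highest in cells with the highest load. Atf4 and Sel1l scatter more, and several cells have Atf4 at 0.

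By load over all 42 insulin cells, Hspa5 had a median of 720 FPKM in the 11 cells under 10000 FPKM of insulin, 1255 FPKM in the 15 cells up to 100000 FPKM and 3560 FPKM in the 16 cells above. Sdf2l1 had 117, 151 and 1101 FPKM in the same bins. Manf had 265, 609 and 2333 FPKM. Most of the step thus lay between the second and the third bin for Sdf2l1. Day moved with the bins: 7 of the 11 cells of the lowest bin came from E13.5 or E14.5, 2 of them from the low-GC set, and 15 of the 16 of the highest from E15.5. In the 4, 11 and 15 cells of E15.5 alone the medians were 695.6, 1743 and 3394 FPKM for Hspa5, 172, 203 and 1225 FPKM for Sdf2l1 and 478, 912 and 2399 FPKM for Manf. Ddit3 had a median of 0 FPKM in every bin, with up to 395 FPKM in single cells of the third.

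For glucagon the same split could be made in 1 set only, E15.5 run 2, with 6 cells in each group, so it has no test. The difference between the groups was positive for 16 of the 35 genes, with a median of -0.04. Hspa5 had 1119 FPKM in the high-load group and 1078 FPKM in the low-load group, Sdf2l1 107 and 223 FPKM, and Pdia6 793 and 647 FPKM. The median load was 103500 FPKM in the high-load group and 21060 FPKM in the low-load group. The rank correlation with glucagon load over these 12 cells had a median of -0.06 over the 35 genes, from -0.52 (Ssr3) to 0.65 (Eif2ak3), against 0.08 over all genes, and depth and load correlated by -0.12. Whether insulin and glucagon cells differ in this relation was not tested.

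Along embryonic day, over all kept cells of the 8 sets with run as a term, none of the 35 passed in limma, and 0% of the 16154 genes tested did. The mix of cells moved with day: 58 of 73 kept cells at E11.5 and 75 of 90 at E12.5 were negative for both. The low-GC sets were also included, and the part of either in the slopes was not tested. An unadjusted p under 0.05 was found for 4 genes, all with a positive slope: 0.39 log2 units per day for Ssr4 and Sec61b, 0.37 for Ssr2 and 0.34 for Hyou1, with adjusted p from 0.309 to 0.37. Between the runs of the same days none of the 35 passed, with 1 higher and 2 lower at an unadjusted p under 0.05, while 0.711% of the 15743 genes tested differed. All 10 translocon and signal peptidase genes had negative differences of run 2 from run 1, from -0.32 (Sec61b) to -1.09 (Spcs3, limma adjusted p = 0.202). The median of all genes in that comparison was -0.10, and 0.18 after rescaling, under which the 10 ranged from -0.74 to -0.0011. Without the E13.5 sets not all 10 were negative, the highest being 0.23.

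Part of the machinery was low in the low-GC sets. In both E12.5 and E13.5 of run 1, 11 of the 35 genes were below each of the other 6 sets, as were 9.46% of the 16156 entries with a mean of 1 FPKM or more. Sdf2l1 had 3.66 and 1.74 FPKM in these 2 sets and 40.6 to 277 FPKM in the others, a log2 difference of -5.13. Pdia3 had 30.9 and 39.1 FPKM against 460 to 856 FPKM, a difference of -4.17, and Creld2 12.1 and 22.1 FPKM against 120 to 298.5 FPKM, a difference of -3.34. The other 8 were Dnajb9, Dnajb11, Dnajc3, Manf, P4hb, Herpud1, Sel1l and Syvn1. Restricting to Neurog3-only cells gave the same picture for Pdia3, with 32.4 and 45.4 FPKM in the 2 sets and 370 to 556 FPKM in the others.

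GC content gave a weak order to these differences. The transcripts of the 35 genes held 40.2% to 57.4% GC, and its rank correlation with the difference was -0.26 over the 35 genes, a description across genes. Pdia3 holds 46.9% GC, close to Hspa5 with 46.4%, which differed by -0.02. Sec61b, with 57.4% the richest, differed by -0.04, which averages low-GC sets that went opposite ways. Its E12.5 mean of 299 FPKM lay under the lowest mean outside the low-GC sets, 469 FPKM. Its mean for the first run of E13.5, 1282 FPKM, lay over the highest of them, 1125 FPKM. Genes with 40 to 50% GC had a median difference of 0.27 over all genes and -0.01 over the 17 among the 35, and those with 50 to 60% had -0.08 and -0.43 (18 of the 35). The comparisons of insulin and glucagon cells used no low-GC set, and those of Fev-only cells used E13.5 run 1, where Sdf2l1 was listed at 0 in Fev-only cells.

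**Figure D5:**
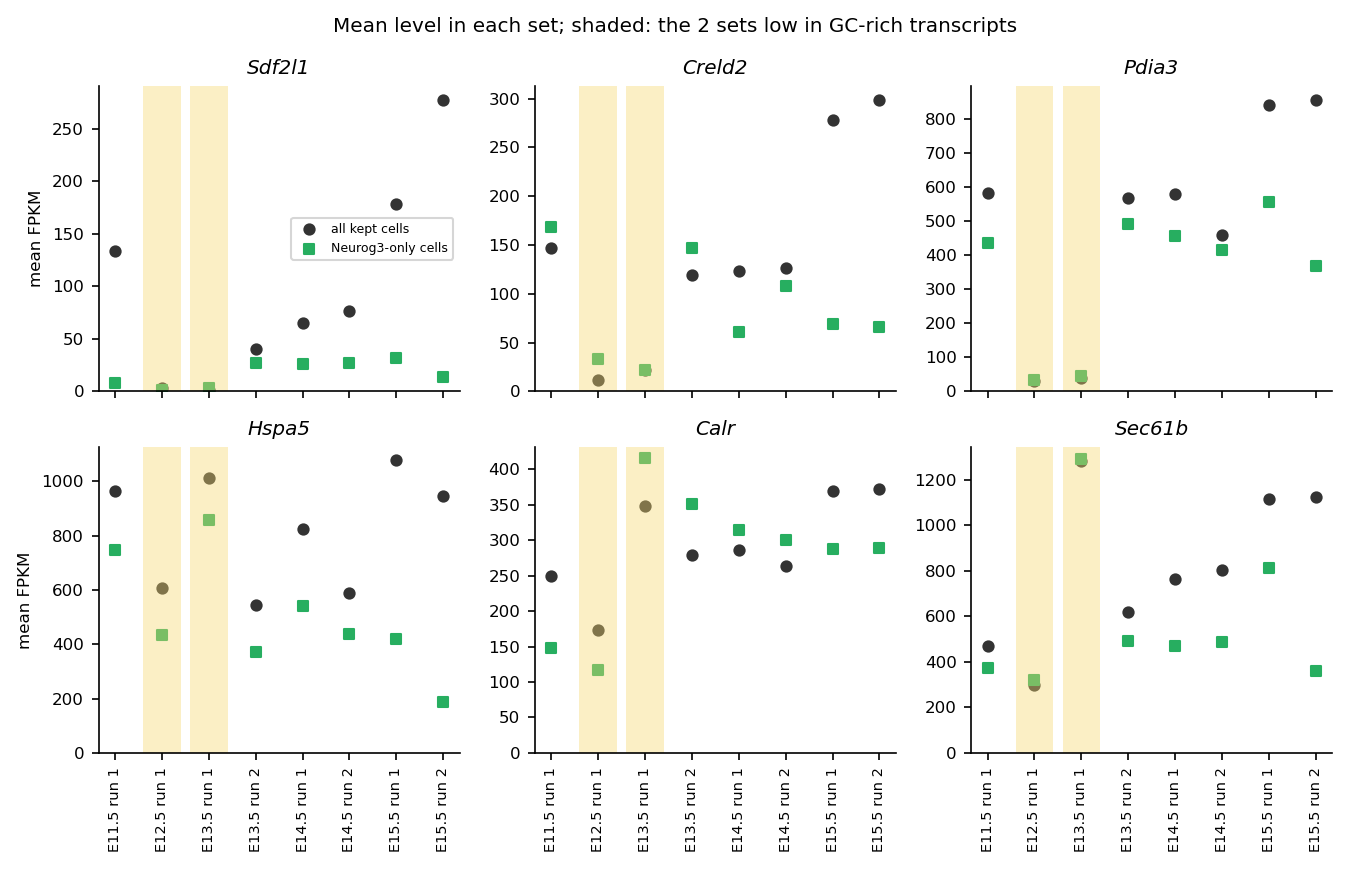
Mean FPKM of 6 of the genes (y axis) in each of the 8 cell sets (x axis), over all kept cells (black circles) and over Neurog3-only cells (green squares), with the 2 low-GC sets shaded. Sdf2l1, Creld2 and Pdia3 are low in the shaded sets in both groups of cells, and Hspa5, Calr and Sec61b at E13.5 run 1 do not. At E15.5 Sdf2l1 is far higher over all kept cells than in Neurog3-only cells.

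The cells of E11.5 and E12.5 without Neurog3, Fev or hormones were mixed. A split chosen after their values were seen put 17 and 31 of them in a group with Cpa1, an enzyme of pancreatic tip cells, at 100 FPKM or more, 18 and 21 in a group with the leukocyte markers C1qa or Tyrobp at that level, and 23 and 23 in the rest. At E11.5 Sdf2l1 had 308 FPKM in the leukocyte-marker cells, 93 FPKM in the Cpa1 cells and 83.2 FPKM in the rest, and Hspa5 had 1351, 721.5 and 639.9 FPKM. At E12.5 the Hspa5 means were 711, 574 and 417 FPKM. Xbp1 had 141, 64.9 and 59.1 FPKM at E11.5, but 8.7, 18.6 and 4.79 FPKM at E12.5, where the Cpa1 cells were highest. The E12.5 cells are those of a low-GC set, and Sdf2l1 had 10.2, 1.93 and 2.11 FPKM there, so levels of the 2 days are not alike in kind. Ssr2 was lowest in the leukocyte-marker cells at E11.5, with 366, 552 and 461 FPKM, and highest in the Cpa1 cells at E12.5, with 396, 722.6 and 369.8 FPKM. These are means over cells of 1 set and have no test.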

How the data were processed

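Single Neurog3-eGFP cells were sequenced and labelled with 1 of 2 runs, and the authors deposited 1 table of FPKM values per gene and cell. The processing notes of the submitters list Cufflinks 2.2.0, TopHat2 2.0.13 and mm10, and no source used here names the gene annotation. FPKM is a share of each library's fragments, so a transcript that takes a large share lowers all others.

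Cells with at least 100000 fragments and 1500 genes at 1 FPKM were kept. Mean FPKM over the cells of a state in a set, with at least 5 cells of both states, entered limma 3.58.1 (R 4.3.3) as log2(mean + 1), with the set as a term, a filter of 1 FPKM on the mean, two-sided tests and Benjamini-Hochberg adjustment over all genes. Fold changes are on that scale and understate those of low genes. The code was tested on simulated data. All 35 genes are named, and of a wider list up to 3 per direction with the largest changes among those that passed. The 35 genes, the wider list and the markers were chosen with earlier results of these data known. The split of early negative cells was chosen after their values were seen. Alternatives changed the pseudocount, filter, averaging, scaling, depth, thresholds and sets. Start regions are RefSeq's, GRCm38.p6, and GC content and overlaps come from GENCODE.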

Additional observations from a re-analysis of the deposited data

Results flagged for a closer look

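In 2 of the 35 genes, 1 of the 6 sets stood apart from the rest in the difference of Fev-only from Neurog3-only cells. Creld2 differed by 1.853 on the log2 scale at E15.5 run 1, with 251.7 FPKM in Fev-only cells and 68.9 FPKM in Neurog3-only cells. Sec61g differed by 0.7204 at E14.5 run 2, with 348 FPKM against 211 FPKM, while the other 5 sets were negative. Chance marks about 1 in 20 such groups.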

How the results depend on the processing

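Counts of members called moved with the processing, and no called gene changed sign under any alternative run. For insulin against Neurog3-only cells the 10 higher became 3 with a pseudocount of 10, 0 with no filter, 30 with the mean of log values, 23 after rescaling, 6 in cells of at least 300000 fragments and 1 in run 2 alone, and leaving out a set gave 1 to 19. With alternatives chosen after seeing the data it was 5 with a hormone load from 100 FPKM and 0 with sets of at least 2 cells. For glucagon against Neurog3-only cells the 6 higher became 0 with no filter, 12 with the mean of log values and 10 from 100 FPKM, and 1 was lower after rescaling. For insulin against glucagon cells the 5 higher became 8 with the larger pseudocount, 10 with no filter, 12 with the mean of log values, 17 after rescaling, 8 at 300000 fragments, 0 without the set term, 12 from 10000 FPKM, 1 from 100 FPKM and 0 with sets of 2 cells. For Fev-only against Neurog3-only cells the 2 higher became 4 after rescaling, 0 without the set term and 0 with thresholds of 50 FPKM. The 2 lower became 1 with no filter, 1 without the set term and 0 at 50 FPKM, and 0 to 2 with a set left out. For Neurog3 and Fev cells the mean of log values gave 1 higher and 3 lower, rescaling 1 and 2, and leaving out a set 0 to 1 lower. For insulin against Fev-only cells the mean of log values gave 21 higher, rescaling 14, a load from 10000 FPKM 10, and leaving out a set 0 to 17. For insulin load the 10 higher became 5 with no filter, 3 at 300000 fragments and 0 without the set term. Between runs the mean of log values gave 1 higher. The share of all genes called under each alternative was not counted, and the cause of these shifts was not tested. No paired analysis was possible because of what the replicate numbers are: they name wells or cells and tie no cell to one of another group. States were compared within each cell set, through the set term. Not run, for want of a second set, were run 1 alone, single-set versions of the comparisons with 2 sets, glucagon load, and insulin against Fev-only cells at 50 FPKM. Few insulin cells before E15.5 limit what could be tested.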
